A study of Mus musculus with 10 samples.

Results

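Hepatocytes that had lost both Nrf2 and the NF-κB subunit p65 (Nrf2:p65 DKO, 3 libraries) were compared with control hepatocytes (3 libraries). These 6 of the 10 libraries were chosen by their genotype labels, and the comparison covers 13641 of the 21939 genes in the table, namely those whose counts over the 10 libraries added up to 10 or more. The controls were wild-type C57BL/6J mice, and the DKO mice carried floxed alleles of both Nrf2 and p65 on the same background. Any other difference between wild-type and floxed mice thus cannot be told apart from the deletions in this design. All mice were males of 8 to 9 weeks. Controls and DKO mice alike received AAV8Cre, an adeno-associated virus of serotype 8 that expresses Cre recombinase from the hepatocyte-specific thyroxine-binding globulin promoter, so the presence of virus and Cre does not separate the groups. Hepatocytes were isolated 12 days later by liver perfusion, low-speed centrifugation, and a Percoll step. Mice with a single deletion (Nrf2 KO and p65 KO, 2 libraries each, floxed for 1 of the genes and treated in the same way) serve here only to show where DKO differed from either deletion alone.

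Nrf2 is a transcription factor that is held back by Keap1 and released by electrophiles and oxidants. It binds antioxidant response elements (AREs) and drives genes for glutathione synthesis, conjugation, and export of foreign compounds. p65, encoded by Rela, is the main activating subunit of NF-κB, which is freed from its inhibitor by inflammatory signals and drives genes of inflammation, the acute-phase response, and cell survival. In the liver, both factors are known to protect hepatocytes from toxic and inflammatory injury.

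Transcripts of both targeted genes were still present. Nfe2l2, which encodes Nrf2 (GRCm39, chromosome 2 from 75504739 to 75534985), had 2318, 1991, and 1990 normalized counts in control replicates 1 to 3 and 4111, 3434, and 5240 in DKO replicates 1 to 3. Every DKO library was above every control library, and the gene rose by 1.02 on the log2 scale (SE, the standard error, 0.143; adjusted p = 0.00347 in edgeR). The gene was no longer called without DKO replicate 3, control replicate 2, or control replicate 3, or with libraries scaled to equal totals (log2 fold change 0.93), because the change then fell under the minimum of 1. Rela (chromosome 19 from 5687493 to 5698161) had 1221, 1276, and 1269 normalized counts in control and 1488, 1241, and 1034 in DKO. The libraries overlapped, and the log2 fold change was 0.00 (SE 0.124, adjusted p = 0.998). A total per gene does not count the deleted exons apart, so neither total measures the deletion itself. The Nfe2l2 total did differ with the Nrf2 label, with 4738.5 and 5005 normalized counts in Nrf2 KO and 1993 and 1997 in p65 KO. The Rela total did not differ with the p65 label, with 1268 and 1225 in Nrf2 KO and 1182.5 and 1209 in p65 KO. The paper reports the loss of both genes in isolated hepatocytes by RT-qPCR and Western blot.

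Total estimated counts per library ranged from 36170874 to 42518454 in control and from 35357766 to 40103546 in DKO, so depth was similar in both groups. A gene was called when edgeR's quasi-likelihood test, adjusted by the Benjamini-Hochberg method over all 13641 genes, gave at most 0.05 and the log2 fold change was at least 1 in either direction. By this rule 325 genes, 2.38% of those tested, differed between DKO and control, of which 186 were higher (1.36%) and 139 were lower (1.02%) in DKO. The control and DKO libraries did not overlap for 321 of the called genes, and for 26.5% of all genes tested. Each count of called genes in a list below can be read against these shares. The median log2 fold change over all genes was 0.02. How many of all genes had a higher mean in DKO was not counted. The count depended on single control libraries, with 147 genes called without control replicate 1 and 193 without control replicate 2. In each of the 6 fits that left out 1 library, 111 of the 325 genes were called, 71 of them lower and 40 higher. With library totals made equal, the balance turned to 153 genes higher and 177 lower, and the median over genes that averaged 50 normalized counts or more moved by -0.09 on the log2 scale.

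**Figure D1:**
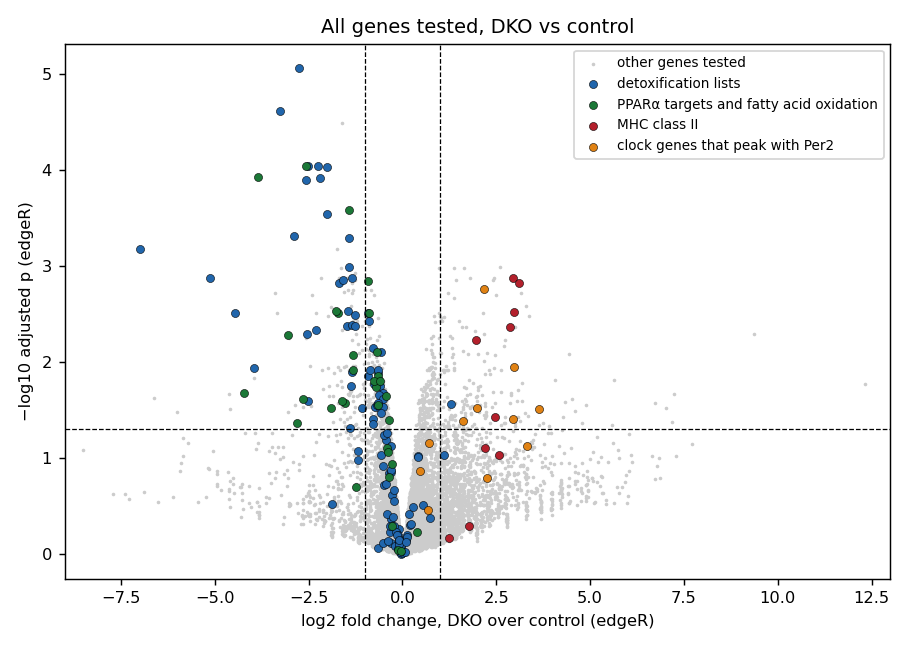
Log2 fold change of DKO over control (x axis) and −log10 of edgeR's adjusted p (y axis) for the 13641 genes tested, with dashed lines at the limits of the call. Genes of the 7 detoxification lists (blue) and of the PPARα list (green) lie mainly on the left, and the MHC class II genes (red) and the clock genes that peak with Per2 (orange) lie on the right.

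Genes of xenobiotic detoxification were lower in DKO. In 7 lists of conjugating, reducing, and hydrolytic enzymes and transporters, 30 of 113 genes tested fell and 1 rose, and the median log2 fold change was -0.52. The number that fell was between 25 and 34 when 1 library was left out. Of the glutathione S-transferases, which couple glutathione to electrophiles, 8 of 23 fell and none rose (median -0.78). Each count can be read against the 1.02% of all genes that fell. The other lists gave 4 of 21 for glutathione, thioredoxin, and quinone defence, 6 of 13 for carboxylesterases, 6 of 16 for UDP-glucuronosyltransferases and UDP-glucose dehydrogenase, 3 of 14 for epoxide, carbonyl, and aldehyde enzymes, 2 of 19 for efflux pumps and uptake transporters, and 1 of 7 for enzymes that produce NADPH. A further list, of the Cyp2a, Cyp2b, Cyp2c, and Cyp3a P450 enzymes with their regulators, is not in this total. Of its 31 genes, 2 fell (Nr1i3 and Cyp2c37), Cyp2a4 rose, and the median was -0.23. Without DKO replicate 3, 7 of them fell, and Cyp2c37 was lost without 4 other single libraries (adjusted p between 0.0561 and 0.0764). Cyp2c37 shares 42% of its transcript 31-mers (stretches of 31 bases) with other genes.

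**Figure D2:**
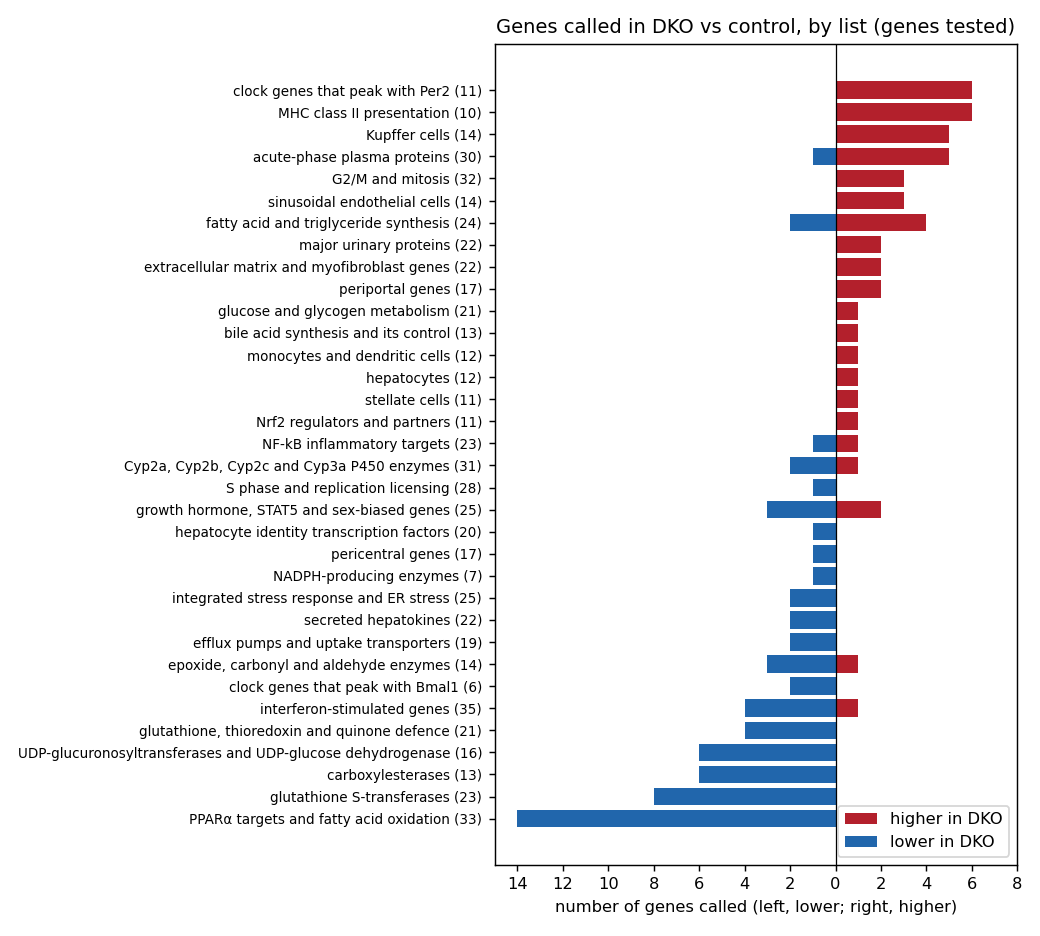
Number of genes called lower (left, blue) or higher (right, red) in DKO than in control for each gene list with at least 1 call, with the number of genes tested in parentheses. The PPARα list holds 14 genes that fell and the 4 largest detoxification bars hold 8, 6, 6, and 4, while the MHC class II list and the clock genes that peak with Per2 hold 6 genes each that rose.

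Gstm1, a mu-class glutathione S-transferase (chromosome 3 from 107919380 to 107925380), had 110478, 116086, and 95274 normalized counts in control and 9477, 9883, and 13929 in DKO. The groups were far apart, and the log2 fold change was -3.27 (SE 0.192, adjusted p = 2.43e-05 from edgeR). Of the alpha-class genes, Gsta13 and Gsta1 fell by more than Gstm1, and Gsta2 fell by less. Gsta13 had 241, 212, and 154 normalized counts in control and 0, 4.49, and 0 in DKO, a log2 fold change of -6.98 (adjusted p = 0.000668). Gsta1 changed by -5.13 (adjusted p = 0.00133) and Gsta2 by -2.57 (adjusted p = 0.000126) on the log2 scale. Gsta13 shares 96.6% and Gsta1 92.9% of its transcript 31-mers with another gene, so that reads could have been divided between them. Summed over the 3 genes, which does not depend on such a division among them, the level was 2182, 2112, and 2319 normalized counts in control and 219, 396, and 227 in DKO, or 0.127 times control. Gsta3, Gsta4, Gstm3, and Gstm4 also fell, with log2 fold changes of -1.36, -1.27, -2.31, and -1.46. The other 15 members were not called, and 3 of them, Gstm6 (-0.86), Gstp1 (-0.79), and Mgst1 (-0.78), passed the adjusted p but not the minimum fold. Gstz1 had a log2 fold change of -0.05 (adjusted p = 0.81) and Gstk1 of -0.08 (adjusted p = 0.716), neither of which passed the test.

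Glutathione supply was represented by Gclc, the catalytic subunit of glutamate-cysteine ligase, the rate-limiting enzyme of glutathione synthesis. It had 27771, 22722, and 18703 normalized counts in control and 5111, 5326, and 4600 in DKO, a log2 fold change of -2.20 (SE 0.174, adjusted p = 0.00012 from edgeR). The 3 DKO libraries were closely grouped below all controls. Gclm, the modifier subunit of the same enzyme, had a log2 fold change of -0.53 (adjusted p = 0.0211), which lies under the minimum fold of the call. Srxn1, which repairs oxidized peroxiredoxins, fell by 1.34 on the log2 scale (adjusted p = 0.00133). Nqo1, a quinone reductase, had 218, 181, and 182 normalized counts in control and 52.6, 71.8, and 103 in DKO and fell by 1.35 (adjusted p = 0.0126), but was not called without control replicate 1 (adjusted p = 0.0565). Osgin1, an oxidative stress response gene, had between 14451 and 17342 normalized counts in control and 5799, 1310, and 1078 in DKO. Its call (log2 fold change -2.51, adjusted p = 0.0251) was lost without DKO replicate 2, control replicate 1, or control replicate 2 (adjusted p between 0.0593 and 0.0788). Hmox1, the inducible heme oxygenase, was measured at 216, 181, and 219 normalized counts in control and 262, 212, and 248 in DKO, and these did not pass the test (log2 fold change 0.23, adjusted p = 0.478).

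Carboxylesterases, which hydrolyse esters of drugs and lipids, contributed a row of neighboring Ces1 genes on chromosome 8. Ces1b (93780578 to 93806709) had 3264, 2874, and 3116 normalized counts in control and 381, 466, and 536 in DKO. Its adjusted p of 8.7e-06 from edgeR was the lowest of all genes in this comparison, with a log2 fold change of -2.74 (SE 0.136). Ces1d, Ces1e, Ces1f, and Ces1g, which lie next to it, had log2 fold changes of -1.59, -1.42, -1.34, and -2.90. Ces2c, a member of another carboxylesterase subfamily, fell by 2.53 on the log2 scale (adjusted p = 0.00509). The number of carboxylesterases called was 6 in every fit that left out 1 library.

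Glucuronidation enzymes fell as a further group. Ugt2b35 had 17494, 15107, and 10732 normalized counts in control and 3366, 2791, and 2965 in DKO, a log2 fold change of -2.25 (SE 0.166, adjusted p = 9.04e-05 from edgeR). The 3 DKO libraries were close to each other and far below the lowest control. Ugt2b5 fell by 2.00 on the log2 scale, and it shares 40.3% of its transcript 31-mers with other genes. Ugt2b36, Ugt1a6a, and Ugt1a6b had log2 fold changes of -1.44, -1.69, and -1.26, and Ugdh, which makes the glucuronic acid donor, had -1.48. Ugt1a6a and Ugt1a6b share 89.3% and 85.8% of their transcript 31-mers with other genes, and their separate values are uncertain for this reason. As with the carboxylesterases, 6 genes of this list were called in every fit that left out 1 library.

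Among the remaining detoxification genes, Aox1, an aldehyde oxidase, had 6314, 5684, and 4227 normalized counts in control and 770, 1104, and 947 in DKO (log2 fold change -2.52, SE 0.183, adjusted p = 9.04e-05 from edgeR). Ephx1, microsomal epoxide hydrolase, fell by 2.00 on the log2 scale (adjusted p = 0.000288). Abcc3, an export pump for conjugates at the basolateral membrane (chromosome 11 from 94233874 to 94283823), had 9159, 11190, and 10670 normalized counts in control and 337, 727, and 352 in DKO. Its log2 fold change was -4.45 (SE 0.605, adjusted p = 0.00304), the most negative of the transporters tested. Abcc12, a transporter of the same family, was near the limit of detection in DKO, with 1, 2, and 1 counts against 20, 24, and 30 counts in control (log2 fold change -3.95, adjusted p = 0.0113). Nr1i3, the constitutive androstane receptor CAR that senses foreign compounds, had 4301, 4522, and 4679 normalized counts in control and 1329, 1384, and 2148 in DKO (log2 fold change -1.47, adjusted p = 0.00133). Aldh1b1 was the 1 gene of the 7 lists that rose (log2 fold change 1.28, adjusted p = 0.0271), but it was not called without DKO replicate 1, DKO replicate 2, control replicate 1, or control replicate 2 (adjusted p between 0.0696 and 0.108). The fall of Aldh1a1 (-1.07, adjusted p = 0.0301) was lost without the same 4 libraries (adjusted p between 0.0708 and 0.115).

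The detoxification lists were also read in the single knockouts, which share the control libraries with this comparison. The median log2 fold change of the glutathione S-transferases against control was -0.78 in DKO, -0.69 in Nrf2 KO, and -0.38 in p65 KO. For the carboxylesterases the medians were -0.68, -0.56, and -0.32, and for the UDP-glucuronosyltransferase list -0.61, -1.04, and -0.17. Gstm1 differed between DKO and p65 KO (log2 fold change -2.56, adjusted p = 0.000164 from edgeR), whereas between DKO and Nrf2 KO the log2 fold change was -0.31 and did not pass the test (adjusted p = 0.494). Gclc was lower in DKO than in p65 KO by 0.87 (adjusted p = 0.0299) and lower than in Nrf2 KO by 0.99 (adjusted p = 0.046) on the log2 scale, both under the minimum fold of the call.

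The promoters of these genes were searched for the ARE core, since it is the site that Nrf2 is known to bind. The window ran from 250 bases before to 50 bases after the start of each gene's Ensembl canonical transcript (GENCODE M39, GRCm39). In it, TGACNNNGC on either strand was present in 13.5% of the promoters of all genes tested and in 13.7% of those of genes that fell. It was present in 3 of the 30 detoxification genes that fell (Gsta3, Srxn1, and Aox1). The core was thus about as frequent in this window as over all genes, and no match says only that these letters are not in the window. A stretch of the Gsta3 promoter, the one of a glutathione S-transferase, is shown on the strand of the gene, with the core in capitals. It comes from chr1:21310658-21310726 (+), where the core starts 118 bases before the start of Gsta3.
Gsta3: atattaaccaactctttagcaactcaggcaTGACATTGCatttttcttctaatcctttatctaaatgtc

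Genes of lipid breakdown and lipid synthesis were examined next. Of 33 tested genes of fatty acid oxidation and of the fatty acid receptor PPARα, 14 fell, none rose, and 32 had a lower mean in DKO (median log2 fold change -0.88, against 0.02 over all genes). Between 8 and 13 of them were called when 1 library was left out, the fewest without DKO replicate 2. Of 24 genes for fatty acid and triglyceride synthesis, 4 rose and 2 fell (median 0.20). Over all genes tested, 1.36% rose and 1.02% fell.

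Vnn1, a pantetheinase and a known PPARα target, had 1547, 1466, and 1650 normalized counts in control and 188, 276, and 327 in DKO, a log2 fold change of -2.56 (SE 0.187, adjusted p = 9.04e-05 from edgeR). Plin2, which coats lipid droplets, had 27866, 21408, and 21306 normalized counts in control and 8759, 8869, and 8717 in DKO, so that the DKO libraries differed little from each other. It fell by 1.42 on the log2 scale (SE 0.124, adjusted p = 0.000257). Ehhadh, an enzyme of peroxisomal β-oxidation, fell by 1.73 (adjusted p = 0.00304), and Pdk4, a kinase that holds back glucose oxidation, fell by 3.04 (adjusted p = 0.00523). The ω-hydroxylases of the Cyp4a family fell as well. Cyp4a14 had 11401, 14078, and 29874 normalized counts in control and 108, 678, and 2189 in DKO, a wide range in both groups, and its call (log2 fold change -4.22, adjusted p = 0.0208) was lost without DKO replicate 2 (adjusted p = 0.0607). Cyp4a12a and Cyp4a12b, which share 57.5% and 62.9% of their transcript 31-mers with other genes, were summed and had 0.378 times the control level. Cpt1a, which admits fatty acids to mitochondria, did not pass the test (-0.04, adjusted p = 0.928), nor did Ppara itself (-0.28, adjusted p = 0.504).

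**Figure D3:**
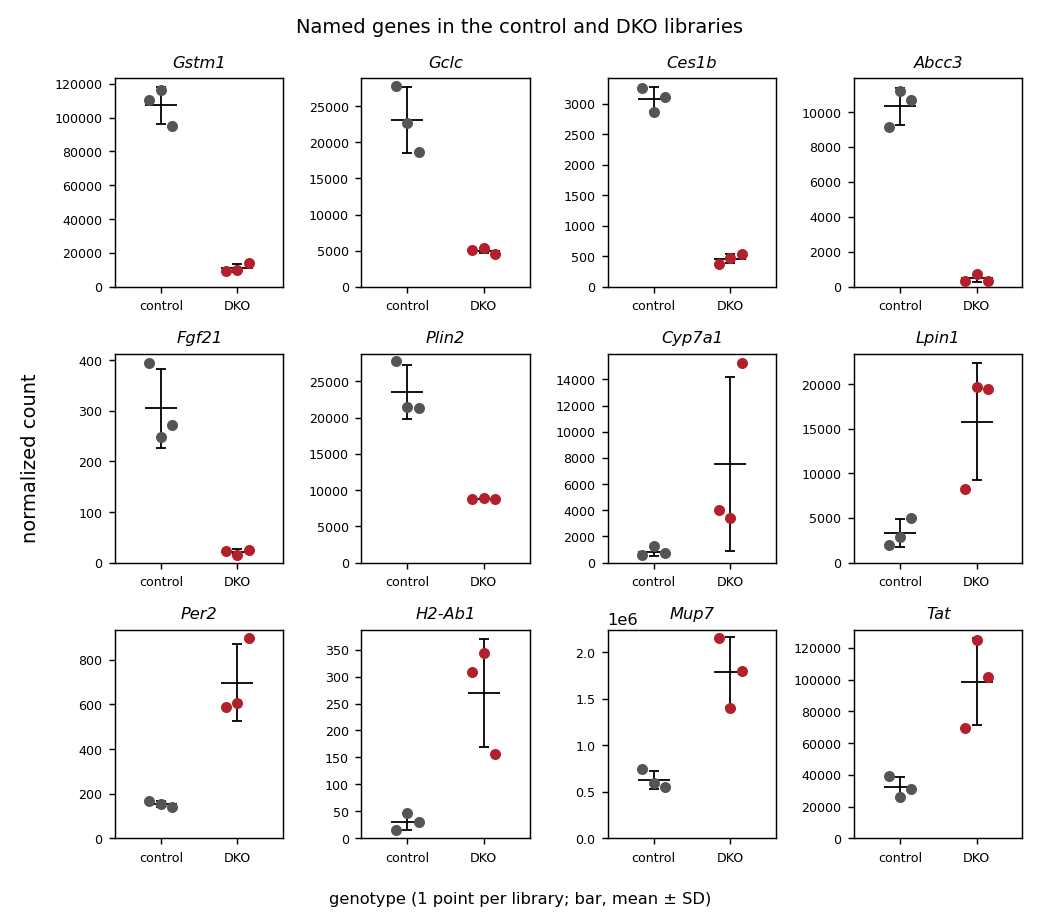
Normalized count (y axis, linear, starting at 0) of 12 named genes in the 3 control and 3 DKO libraries, with 1 point per library and bars for mean ± SD. For all 12 genes the points of the groups do not overlap, and the DKO points of Plin2 lie close together while those of Cyp7a1 and Lpin1 are widely spread.

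Lpin1, a phosphatidate phosphatase of triglyceride synthesis, had 1982, 2879, and 5010 normalized counts in control and 8194, 19725, and 19475 in DKO (log2 fold change 2.26, SE 0.37, adjusted p = 0.00791 from edgeR). Srebf1, the regulator of fatty acid synthesis, rose by 1.39 on the log2 scale (adjusted p = 0.0103), and Thrsp, a lipogenic protein, rose by 2.30 (adjusted p = 0.0121). Both were lost without control replicate 1 (adjusted p = 0.0544 and 0.064). Fasn, fatty acid synthase, had 12816, 23605, and 13869 normalized counts in control and 51698, 21704, and 57238 in DKO, so its groups overlapped. Its call (adjusted p = 0.0359) was lost without DKO replicate 1, DKO replicate 3, control replicate 1, or control replicate 3 (adjusted p between 0.0887 and 0.14). Me1, which supplies NADPH for this pathway, fell (-1.39, adjusted p = 0.0481) and was called in 1 of the 6 fits that left out a library (otherwise adjusted p between 0.0721 and 0.126). Elovl3, a fatty acid elongase, fell by 1.67 (adjusted p = 0.0386) and was not called without DKO replicate 2, DKO replicate 3, control replicate 1, or control replicate 2 (adjusted p between 0.0998 and 0.132). None of the 22 genes of cholesterol synthesis and uptake was called.

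Cyp7a1, the rate-limiting enzyme of bile acid synthesis (chromosome 4 from 6265612 to 6275633), had 539, 1236, and 704 normalized counts in control and 4044, 3393, and 15217 in DKO. Each DKO library was above each control library, and DKO replicate 3 was far above the other 2. The log2 fold change was 3.19 (SE 0.61, adjusted p = 0.0163 from edgeR), and the call was lost without control replicate 1 (adjusted p = 0.0764) or control replicate 3 (adjusted p = 0.0505). It was the 1 gene called of the 13 tested for bile acid synthesis and its control, which had a median log2 fold change of -0.05. Cyp17a1, a steroid hydroxylase, had 85, 125, and 191 normalized counts in control and 1661, 534, and 1960 in DKO (log2 fold change 3.37, SE 0.464, adjusted p = 0.00326). Tat, which starts tyrosine breakdown and is a marker of mature hepatocytes, rose from 39385, 25764, and 31130 to 69715, 124748, and 101867 normalized counts (log2 fold change 1.62, adjusted p = 0.00766).

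To find genes that set DKO apart from all other genotypes, DKO was tested against each single knockout in the same model. Against Nrf2 KO 59 genes (0.433%) were called and against p65 KO 243 genes (1.78%). A total of 15 genes, 0.11% of those tested, were called against control, Nrf2 KO, and p65 KO, 11 of them higher and 4 lower in DKO than in control. The 3 comparisons share the DKO libraries. The 15 included Cd74, H2-Aa, Ctss, and Cd5l, immune cell genes whose DKO levels lay above those of control and Nrf2 KO and below those of p65 KO. Hsd3b2, Slc3a1, Acmsd, Chrm3, and Hmgn2-ps are named here after their values had been seen.

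Hsd3b3 and Hsd3b2, neighboring 3β-hydroxysteroid dehydrogenase genes on chromosome 3 (98648793 to 98670443 and 98616571 to 98631859), moved in opposite directions. Hsd3b3 had 8480, 8812, and 8374 normalized counts in control, 10294 and 10044 in Nrf2 KO, 7720 and 8924 in p65 KO, and 2909, 2603, and 2950 in DKO. Every DKO library was far below every other library, and the log2 fold change against control was -1.60 (SE 0.1, adjusted p = 3.21e-05 from edgeR), against Nrf2 KO -1.85, and against p65 KO -1.56. Hsd3b2 had 2019, 1793, and 1900 normalized counts in control, 2096 and 2039 in Nrf2 KO, 1661 and 1586 in p65 KO, and 6910, 6672, and 4069 in DKO. Its log2 fold change against control was 1.63 (SE 0.173, adjusted p = 0.00104). Hsd3b2 shares 35.5% and Hsd3b3 28.9% of its transcript 31-mers with other genes. The sum of both was 0.832 times control, with 10499, 10604, and 10274 normalized counts in control and 9819, 9275, and 7019 in DKO. Hsd3b5, a further member of this family, fell by 1.37 against control (adjusted p = 0.00259).

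Fgf21, a hormone that the liver secretes in fasting and stress (chromosome 7 from 45263301 to 45266963), had 394, 248, and 273 normalized counts in control, 117 and 88.1 in Nrf2 KO, 366 and 226 in p65 KO, and 22.1, 15.7, and 25.2 in DKO. The DKO libraries were the 3 lowest of all 10. Against control the log2 fold change was -3.85 (SE 0.3, adjusted p = 0.000117 from edgeR), against Nrf2 KO -2.28 (adjusted p = 0.0111), and against p65 KO -3.81 (adjusted p = 0.000279). The interaction, which asks whether the effect of Nrf2 loss differs between p65-deficient and p65-proficient hepatocytes, called 62 genes (0.455%). For Fgf21 it was -2.23 and missed the threshold (adjusted p = 0.052). Nat8f7, an acetyltransferase-like gene, is not among the 15. It had 114, 168, and 143 normalized counts in control, 430 and 286 in Nrf2 KO, 53.8 and 88.8 in p65 KO, and 7.36, 34.8, and 10.3 in DKO, and it missed the threshold against p65 KO (log2 fold change -2.03, adjusted p = 0.0503 from edgeR). It shares 87.8% of its transcript 31-mers with another gene.

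Slc3a1, a subunit of the transporter for cystine and basic amino acids, had 1693, 1445, and 1643 normalized counts in control, 1507 and 1550 in Nrf2 KO, 1581 and 1195 in p65 KO, and 5355, 3844, and 3247 in DKO (log2 fold change against control 1.38, SE 0.176, adjusted p = 0.00213 from edgeR). Noct, nocturnin, had 772, 629, and 624 normalized counts in control, 655 and 432 in Nrf2 KO, 878 and 1537 in p65 KO, and 2715, 4561, and 4947 in DKO. It is a rhythmic gene known to affect fat handling, and its log2 fold change against control was 2.59 (SE 0.272, adjusted p = 0.00102). Acmsd, an enzyme of tryptophan breakdown, rose by 1.80 against control (adjusted p = 0.00133), and Chrm3, a muscarinic receptor, had between 71.8 and 122 normalized counts in DKO and between 4.04 and 27.4 in the other 7 libraries. Hmgn2-ps, a pseudogene, had 58, 48, and 116 counts in DKO and none in control, at least 27.3-fold higher when control is set to 3 counts per library. It shares 83.6% of its transcript 31-mers with Hmgn2, so the source of its reads is uncertain.

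**Figure D4:**
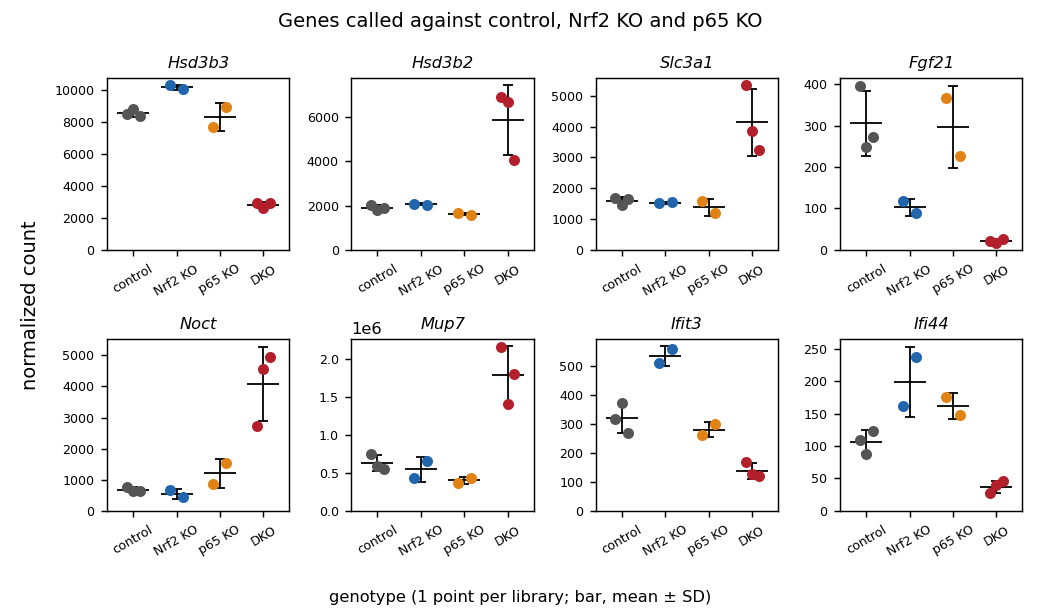
Normalized count (y axis, linear, starting at 0) of 8 genes called in DKO against control, Nrf2 KO, and p65 KO, with 1 point per library and bars for mean ± SD over 3, 2, 2, and 3 libraries. Hsd3b3, Fgf21, Ifit3, and Ifi44 are lowest and Hsd3b2, Slc3a1, Noct, and Mup7 highest in the DKO libraries.

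Interferon-stimulated genes were mixed. Of 35 tested, 4 fell and 1 rose, against 1.02% and 1.36% of all genes, and the median log2 fold change was 0.05. Ifit3, an antiviral protein, had 319, 372, and 269 normalized counts in control, 512 and 560 in Nrf2 KO, 263 and 299 in p65 KO, and 168, 126, and 120 in DKO. It fell against control by 1.21 on the log2 scale (SE 0.173, adjusted p = 0.00375 from edgeR), and it shares 39.4% of its transcript 31-mers with another gene. Ifi44 had 109, 87.5, and 123 normalized counts in control, 161 and 238 in Nrf2 KO, 176 and 147 in p65 KO, and 27.4, 39.3, and 45.8 in DKO (log2 fold change against control -1.51, adjusted p = 0.011). Both were lowest in the DKO libraries, whereas the list's medians in Nrf2 KO and p65 KO, 0.29 and 1.04, were above that in DKO. Rsad2, which inhibits viral replication, fell by 1.62 (adjusted p = 0.00461). The chemokine Cxcl9 fell by 1.26 (adjusted p = 0.0293) and the transcription factor Irf8 rose by 1.25 (adjusted p = 0.048). Neither call held throughout, since Cxcl9 was lost without DKO replicate 1, DKO replicate 3, control replicate 1, or control replicate 3 (adjusted p between 0.0637 and 0.112), and Irf8 was called in 1 of the 6 fits that left out a library (otherwise adjusted p between 0.0702 and 0.133).

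Of 23 inflammatory targets of NF-κB tested, 2 were called, against 2.38% of all genes. Lcn2 rose and Saa3 fell, and none of 16 NF-κB subunits and feedback inhibitors was called. Saa3, an inducible serum amyloid A, had 230, 92.4, and 124 normalized counts in control and 32.6, 26.9, and 14.9 in DKO (log2 fold change -2.57, SE 0.396, adjusted p = 0.00565 from edgeR). Lcn2, a siderophore-binding acute-phase protein, moved the other way, with 47.5, 19.7, and 29 normalized counts in control and 344, 266, and 245 in DKO (log2 fold change 3.16, SE 0.394, adjusted p = 0.00189). Of 30 acute-phase plasma proteins, 5 rose and 1 fell. Besides Lcn2, the 5 were Orm2 (2.45), Mt2 (2.11), Saa2 (1.90), and Mt1 (1.41), whose calls were each lost in at least 1 fit that left out a library. Orm2 and Saa2 share 32.2% and 42.5% of their transcript 31-mers with other genes. Orm2 was lost without control replicate 2 (adjusted p = 0.0505), Mt2 without DKO replicate 2, control replicate 1, or control replicate 2 (adjusted p between 0.0546 and 0.0764), and Saa2 and Mt1 without 4 libraries each (adjusted p between 0.0659 and 0.137). C3 (-0.13, adjusted p = 0.731) and the coagulation protein Plg (0.20, adjusted p = 0.417) did not pass the test, and no complement or coagulation factor of the 32 tested did.

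MHC class II genes, which antigen-presenting cells use to display peptides to T cells, rose together. Of 10 tested, 6 rose, none fell, and all 10 had a higher mean in DKO (median log2 fold change 2.51). Over all genes tested, 1.36% rose and the median was 0.02. Between 5 and 7 were called when 1 library was left out. H2-Ab1 had 15.5, 47.2, and 30.8 normalized counts in control and 308, 344, and 157 in DKO (log2 fold change 3.10, SE 0.368, adjusted p = 0.00149 from edgeR). H2-Aa, H2-Eb1, and the invariant chain Cd74 had log2 fold changes of 2.87, 2.98, and 2.95, and Ctss, the protease that cleaves the invariant chain, had 1.95. Ciita, the regulator of class II genes, had a log2 fold change of 2.57 and did not pass the test (adjusted p = 0.0929). DKO replicate 3 was the lowest DKO library for H2-Ab1, H2-Aa, H2-Eb1, Cd74, and Ctss. H2-DMa rose by 2.45 (adjusted p = 0.0375) and was called in 1 of the 6 fits (otherwise adjusted p between 0.062 and 0.113). Against the same control libraries, the median of the list was -0.13 in Nrf2 KO and 3.92 in p65 KO. None of 19 genes of MHC class I presentation was called (median 0.45).

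Markers of other liver cells moved in the same direction. Of 14 Kupffer cell markers, 5 rose (Cd5l, C1qa, C1qb, C1qc, and Marco), none fell, and 13 had a higher mean in DKO (median log2 fold change 1.62). The share of all genes tested that rose was 1.36%. The sum over all 14 did not separate the groups, with 5703, 5026, and 4685 normalized counts in control and 5615, 5615, and 4022 in DKO. It included Slc40a1, an iron exporter that hepatocytes also express, which had 5284, 3982, and 3894 in control and 2463, 3482, and 2232 in DKO (log2 fold change -0.69, adjusted p = 0.0561 from edgeR). Without this gene, the sum of the remaining 13 markers was 419, 1044, and 791 normalized counts in control, 899 and 291 in Nrf2 KO, 6381 and 4690 in p65 KO, and 3153, 2133, and 1790 in DKO. For sinusoidal endothelial cells, 3 of 14 markers rose (Eng, Dnase1l3, and Lyve1, median 0.96), with a sum between 1153 and 2424 in control and between 3118 and 4844 in DKO. Stellate cell markers had 1 of 11 called (Dcn, median 1.39) and monocyte and dendritic cell markers 1 of 12 (Lyz2, median 1.67), with sums between 206.5 and 398 in control and between 367 and 502 in DKO for the latter. T and NK cell markers summed to at most 4.42 normalized counts in control and lay between 19.5 and 31.6 in DKO, with no gene called of 8. Of the 11 hepatocyte markers besides Tat none was called, and the list's median was 0.10, with Alb between 2472214 and 3719565 normalized counts in control and between 3150644 and 3232014 in DKO. In such bulk libraries, more cells of a type and more RNA per cell cannot be told apart, and the part that other cells had in the class II result was not tested.

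**Figure D5:**
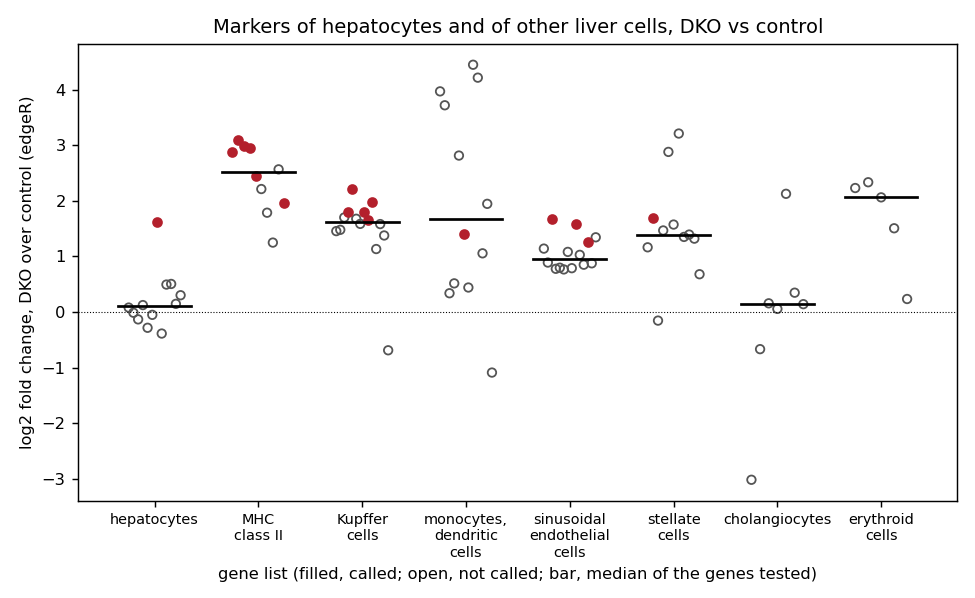
Log2 fold change of DKO over control (y axis) for each tested gene of 8 lists, with filled points for called genes, open points for genes not called, and a bar at the median. The hepatocyte and cholangiocyte medians lie near 0, and those of MHC class II, Kupffer cells, monocytes and dendritic cells, sinusoidal endothelial cells, stellate cells, and erythroid cells lie at 0.96 or more.

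The calls of these markers depended on single libraries. No Kupffer cell marker was called without DKO replicate 1 or without control replicate 1 (in the latter fit Cd5l adjusted p = 0.071, C1qb 0.0927, C1qc 0.102, C1qa 0.108, and Marco 0.132). Eng (1.58), Dnase1l3 (1.25), and Lyve1 (1.67) were likewise lost without control replicate 1, with adjusted p-values of 0.0974, 0.118, and 0.11. Dcn (1.68) was lost without DKO replicate 2, control replicate 1, or control replicate 2 (adjusted p between 0.1 and 0.145), and Lyz2 (1.40) was called in 1 of the 6 fits (otherwise adjusted p between 0.0549 and 0.129). Of 22 extracellular matrix genes, the metalloproteinase inhibitors Timp2 and Timp3 rose, by 2.42 and 1.91 on the log2 scale, and both were lost without control replicate 1 (adjusted p = 0.0799 and 0.114) and without other single libraries.

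Genes of the circadian clock rose and fell according to their phase. The clock runs as a loop in which Bmal1 with Clock or Npas2 binds E-boxes and drives Per and Cry genes, whose products then block Bmal1. Of 11 genes that peak with Per2, 6 rose and none fell (median log2 fold change 2.18), and of 6 genes that peak with Bmal1, Bmal1 and Npas2 fell (median -0.90). Per2 had 168, 155, and 138 normalized counts in control and 589, 607, and 897 in DKO (log2 fold change 2.18, SE 0.264, adjusted p = 0.00171 from edgeR). Bmal1 had 758, 1130, and 498 in control and 270, 132, and 130 in DKO, so that all DKO libraries were lower (log2 fold change -2.16, adjusted p = 0.0121). Per2 and Bmal1 were called in all 6 fits that left out a library. Against the same controls, the median of the genes that peak with Per2 was 0.53 in Nrf2 KO and 2.99 in p65 KO. Per3 (2.98) was lost without control replicate 1 (adjusted p = 0.0552), and Per1, Usp2, Ciart, Tef, and Npas2 were lost in 4 or 5 fits (adjusted p between 0.0538 and 0.151). Without control replicate 1, the number of genes that rose among those that peak with Per2 was 1. In control, Npas2 alone ranged from 44.8 to 410 normalized counts, and Dbp, a strongly rhythmic gene, from 45.3 to 426. The study's methods give the morning as the time of injection and sacrifice, and the hour for each mouse is not given in the sources used here.

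The E-box CACGTG was present in the same promoter window in 5 of the 11 genes that peak with Per2 (45.5%), against 9.68% of the promoters of all genes tested. The 5 were Per1, Tef, Ciart, Bhlhe41, and Usp2, of which all but Bhlhe41 rose. Among all genes that rose in DKO the E-box was present in 8.6%, and among all that fell in 8.63%. The share in the list describes its promoters and does not depend on the values in DKO or control. The motif is its own reverse complement and is counted once for both strands. Ciart, which held 3 copies, is shown with Per1 and Usp2 on the strand of each gene (GRCm39), with the E-box in capitals. The stretches are chr3:95789557-95789686 (-), chr11:68989216-68989267 (+), and chr9:43978130-43978195 (+), and the E-box begins 22 bases before the start of Per1 and 104 bases before that of Usp2.
Ciart: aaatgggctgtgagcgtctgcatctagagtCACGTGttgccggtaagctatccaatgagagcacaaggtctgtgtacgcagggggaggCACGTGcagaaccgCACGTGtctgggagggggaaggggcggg
Per1: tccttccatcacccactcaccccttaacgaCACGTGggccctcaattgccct
Usp2: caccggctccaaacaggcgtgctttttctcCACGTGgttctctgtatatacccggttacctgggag

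Ciart, a repressor within the clock, had 21, 10.8, and 23.3 normalized counts in control and 47.3, 145, and 503 in DKO, and its DKO libraries thus spanned a wide range (log2 fold change 3.64, SE 0.837, adjusted p = 0.031 from edgeR). Usp2, a rhythmic ubiquitin protease, had 28.7, 37.4, and 98.1 in control and 89.4, 374, and 824 in DKO, and DKO replicate 1 was below control replicate 3.

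Most cell cycle genes had a higher mean in DKO, and a minority of them was called. Of 32 genes of the G2/M phases and mitosis, 3 rose, none fell, and 31 had a higher mean in DKO (median log2 fold change 1.41), against 1.36% of all genes that rose. DESeq2 called 8 of them higher, and none was called without control replicate 1 or control replicate 2. Mki67, a marker of cycling cells, had 15.5, 11.8, and 14.9 normalized counts in control and 44.2, 40.4, and 85.8 in DKO (log2 fold change 2.00, SE 0.401, adjusted p = 0.0196 from edgeR). It was lost without control replicate 1 (adjusted p = 0.0679) or control replicate 2 (adjusted p = 0.0693). Kntc1 and Hmmr, which act at the spindle, had 1 and 3 counts in every control library. Kntc1 had 11, 7, and 55 counts and Hmmr 10, 11, and 31 counts in DKO, and both were lost in 4 or 5 of the 6 fits (adjusted p between 0.0559 and 0.131). DKO replicate 3 was the highest DKO library for all 3 genes. Against the same controls, the list's median was -1.27 for Nrf2 KO and 2.10 for p65 KO. Of 28 genes of S phase and replication licensing, 26 had a higher mean in DKO (median 0.61), but none of these was called. E2f8, an atypical E2F repressor, was the 1 gene called, and it fell (-1.54, adjusted p = 0.0458), a call that was lost without DKO replicate 1, DKO replicate 2, control replicate 1, or control replicate 2 (adjusted p between 0.11 and 0.169). DESeq2 called 4 genes of this list higher, and 5 were called higher without DKO replicate 2. Whether these transcripts came from hepatocytes or from other cells cannot be told apart in bulk RNA.

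The major urinary proteins are pheromone carriers that male hepatocytes secrete in large amounts. Mup7 had 741187, 592925, and 552603 normalized counts in control, 429974 and 660470 in Nrf2 KO, 365765 and 433367 in p65 KO, and 2159112, 1405440, and 1795320 in DKO. The DKO libraries were the 3 highest of all 10, with a log2 fold change against control of 1.51 (SE 0.215, adjusted p = 0.00375 from edgeR). Mup18 rose by 2.21 (adjusted p = 0.0132) and was lost without control replicate 1 (adjusted p = 0.0629). These were the 2 called of 22 members, 20 of which had a higher mean in DKO (median 1.07). Without DKO replicate 2, 8 rose and 1 fell, without control replicate 1, 1 rose, and DESeq2 called 8 higher. Mup7 and Mup18 share 84.5% and 91.5% of their transcript 31-mers with other genes, so the family sum is less affected by how reads were divided. That sum was 3705420, 2741520, and 2841458 normalized counts in control and 7009756, 3983397, and 6502040 in DKO, a log2 ratio of 0.91. Groups of 3 against 3 allow no p below 0.1 in a 2-sided exact permutation test, and this sum had p = 0.1.

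The largest increases, among called genes that averaged 50 normalized counts or more and did not overlap, included genes with little expression in control. Myom2, a sarcomere protein (chromosome 8 from 15107272 to 15183541), had no count in any control library and 689, 738, and 338 counts in DKO, at least 214-fold higher when control is set to 3 counts per library. It was at 0 in both Nrf2 KO libraries, while the p65 KO libraries had 145 and 0 normalized counts. Its call (adjusted p = 0.0168 from edgeR) was lost without control replicate 1 (adjusted p = 0.0546). Tff3, a trefoil peptide of mucosal secretions, had 60.7, 25.6, and 48.6 normalized counts in control and 1971, 181, and 752 in DKO (log2 fold change 4.43, SE 0.733, adjusted p = 0.00816). Ttc39a had 21, 3.93, and 2.8 in control and 140, 59.5, and 259 in DKO (4.07, adjusted p = 0.0152), and was lost without control replicate 2 (adjusted p = 0.0599).

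Large decreases outside the groups above were those of Degs1l, Slc25a30, and Rgs3. Degs1l, a desaturase-like gene, had 993, 746, and 649 normalized counts in control and 38.9, 51.6, and 135 in DKO (log2 fold change -3.41, SE 0.426, adjusted p = 0.00189 from edgeR). Slc25a30, a mitochondrial carrier, had 4970, 5498, and 1903 in control and 344, 651, and 214 in DKO (-3.35, adjusted p = 0.00304). Rgs3, a regulator of G-protein signaling, had 445, 838, and 209 in control and 29.5, 84.2, and 66.4 in DKO (-3.05, adjusted p = 0.0329), and was called in 1 of the 6 fits that left out a library (otherwise adjusted p between 0.0628 and 0.101).

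A further set of genes varied most within the DKO group. Cyp2a4, a steroid hydroxylase that is female-biased in mouse liver, had 8.83, 4.92, and 47.6 normalized counts in control and 1648, 5039, and 11.4 in DKO. DKO replicate 3 lay within the control range, so the call (log2 fold change 6.72, adjusted p = 0.0268 from edgeR) rests on the other 2 libraries and was lost without DKO replicate 2, control replicate 1, control replicate 2, or control replicate 3 (adjusted p between 0.0538 and 0.11). Cyp2a4 shares 55.8% of its transcript 31-mers with its neighbor Cyp2a5, and the sum of both was 1.05 times control. The other 4 genes with the largest spread, ENSMUSG00000116207, Gm28635, Gm43302, and Gm45837, were at 0 in at least 1 DKO library and at 142 normalized counts or more in another, and none was called.

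Several groups gave few or no calls. In 9 of the 38 pathway lists none was called, among them genes of the p53 response (16 tested, median log2 fold change 0.12), death receptors and the Bcl2 family (26 tested, 0.09), immediate early genes (17 tested, -0.40), and G1 cyclins and CDK inhibitors (15 tested, -0.09). Of 25 genes of the integrated stress response and ER stress, Nupr1 and Psat1 fell (-2.86 and -2.44), and each was lost in 3 or 4 fits that left out a library (adjusted p between 0.0724 and 0.0844). Of 20 hepatocyte transcription factors, Nr1i3 alone was called. Hnf4a, the central regulator of hepatocyte identity, had 20459, 19599, and 22455 normalized counts in control and 18410, 19479, and 20048 in DKO (log2 fold change -0.11, adjusted p = 0.554). Of 17 genes of the pericentral zone, Aldh1a1 fell, and of 17 genes of the periportal zone, Aldh1b1 and Sds rose. Sds, a serine dehydratase, was lost without 4 single libraries (adjusted p between 0.057 and 0.139).

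Genes near the floxed loci were examined because they can differ with the origin of a floxed chromosome. Differences between the mice at other loci would not show in these windows. Within 5 Mb of Nfe2l2, 48 genes were tested and Nfe2l2 itself was called. Within 5 Mb of Rela, 209 genes were tested and 4 were called, namely Frmd8 (log2 fold change 1.00), Chka (-1.61), Gm49405 (1.41), and Ccdc85b (1.28). Neither region stood above the 2.38% of all genes tested that were called. Each of the 4 was lost in at least 3 of the 6 fits that left out a library, and Ccdc85b in all 6 (adjusted p between 0.0562 and 0.121).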

How the data were processed

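RNA of isolated hepatocytes was sequenced by the authors from poly-A-selected, stranded libraries with single-end reads of 100 bases. Per the study's methods and the submitters' processing notes, Salmon 1.10.3, GRCm39, GENCODE annotation, and DESeq2 1.42.1 were used. The authors deposited 1 table of estimated counts per gene. Its name speaks of normalized values, but the size factors of its libraries ranged from 0.879 to 1.26, so the values were treated as estimated counts without normalization and rounded to whole numbers.

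Genes whose counts over the 10 libraries added up to 10 or more were tested with edgeR 4.0.16 (R 4.3.3), using TMM normalization and its quasi-likelihood test, with the 4 genotypes in 1 model. Normalized counts are counts scaled to the mean TMM-adjusted library size. Called genes had a Benjamini-Hochberg adjusted p up to 0.05 and rose or fell by 1 or more on the log2 scale. On simulated counts of 13500 genes for DKO against control, 95% of 200 changed genes were recovered with 7 false calls. The changed genes excluded those with the fewest counts, and all were shifted by more than the minimum fold. Counts were drawn independently, without outlying libraries. The simulation thus checks that the code runs and does not give the power or error of the real calls. DESeq2 1.42.0, other scalings and filters, the genotypes compared alone, a replicate block, and leaving out each DKO or control library were alternatives. Replicates were separate samples per the labels, and their counts differed by more than sampling noise (chi-square per degree of freedom between 44.8 and 204). This value was highest between DKO libraries (116 to 204), against 61.65 to 89.99 in control, 44.8 in Nrf2 KO, and 53.9 in p65 KO. P-values measure the spread between samples pooled over all 4 genotypes, so they do not rest on control and DKO alone.

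The comparison, gene lists, and tests were chosen with earlier results of these data known. Genes were named by rule: the targeted genes, the 12 largest changes in each direction among called, non-overlapping genes that averaged 50 normalized counts or more, up to 6 called members of each list (or the 2 most abundant where fewer than 2 were called), the 5 largest changes in each direction against the single knockouts and in the interaction among genes called against control, the 5 genes with the widest DKO spread, and called genes within 5 Mb of the floxed loci. Other genes named were chosen after their values were seen. Of the 21939 gene identifiers, 21926 were found in GENCODE M39 (GRCm39), the source of positions.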

Additional observations from a re-analysis of the deposited data

Results flagged for a closer look

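For 15 genes the effect of losing Nrf2 differed between p65-deficient hepatocytes (DKO against p65 KO) and p65-proficient ones (Nrf2 KO against control), among genes also called between DKO and control. The difference of both effects was tested as an interaction in edgeR's quasi-likelihood model, in which 62 genes (0.455%) were called. Its sign is given as the effect with p65 deleted minus the effect with p65 intact, on the log2 scale.

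A negative difference was found for 7 genes. It was -4.66 for Nupr1 (adjusted p = 0.0493), a stress-response gene, -3.01 for Ifi44 (adjusted p = 0.0106), and -1.77 for Ifit3 (adjusted p = 0.0221). Ifi44 and Ifit3 had effects of opposite sign, with -2.11 and -1.02 when p65 was deleted and 0.90 and 0.75 when it was intact. It was -1.96 for Synj2 (adjusted p = 0.0459), -1.92 for Mpeg1, a macrophage gene (adjusted p = 0.0465), and -1.43 for Prxl2b (adjusted p = 0.0316). For Hsd3b3 it was -1.81 (adjusted p = 0.000679), the lowest adjusted p of the 15.

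A positive difference was found for 8 genes. It was 1.64 for Slc3a1 (adjusted p = 0.0343), 1.74 for Hsd3b2 (adjusted p = 0.0281), and 2.37 for Mup7 (adjusted p = 0.0215). It was 1.77 for Retsat, a retinol saturase (adjusted p = 0.0159), 2.10 for Insig2, which retains SREBP in the endoplasmic reticulum (adjusted p = 0.0123), and 2.32 for Spon2 (adjusted p = 0.0365). The largest values were those of Cyp4a31, 3.94 (adjusted p = 0.0221), and Dhrs9, 4.24 (adjusted p = 0.0123). Both were lower in DKO than in control, and their calls against control depended on single libraries. Dhrs9 was called in 1 of the 6 fits that left out a library (otherwise edgeR adjusted p between 0.0794 and 0.131). Cyp4a31 and Synj2 were each lost in 4 of these fits (edgeR adjusted p between 0.0557 and 0.0956). Cyp4a31 also shares 33.5% of its transcript 31-mers with other genes. Each single knockout had 2 libraries, and none of these was left out in any fit. The number of genes called for the interaction lay between 19 and 119 when 1 DKO or control library was left out.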

How the results depend on the processing

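No named gene called between DKO and control reversed its sign in another setting, nor did the MUP sum. Signs of other genes, and those in the other comparisons, were not examined in this way. The balance of genes higher and lower changed with the setting. Between DKO and control, 541 genes (365 higher) were called by DESeq2, 215 (102 higher) with only the genotypes compared, and 743 (356 higher, 387 lower) without a minimum fold. Against Nrf2 KO, the counts were 292 (230 higher, 62 lower) by DESeq2, 112 (80 higher, 32 lower) without a filter, and 18 (8 higher, 10 lower) with only the genotypes compared. Against p65 KO they were 453 (196 higher, 257 lower) by DESeq2, 504 (418 lower) with equal totals, 105 (45 higher, 60 lower) with only the genotypes compared, and 561 (280 higher, 281 lower) without a minimum fold. For the interaction they were 249 (136 higher, 113 lower) by DESeq2, 118 (91 lower) with equal totals, and 137 (81 higher, 56 lower) without a filter. Equal totals moved the median of genes against p65 KO by -0.27 on the log2 scale. The causes were not tested.

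No library of a single knockout was left out. Leaving out 1 DKO library gave 65 to 81 genes against Nrf2 KO (42 to 58 higher, 23 to 25 lower). Against p65 KO it gave 112 to 294 (50 to 146 higher, 62 to 148 lower). Leaving out 1 DKO or control library gave 147 to 316 genes between DKO and control (63 to 166 higher, 84 to 150 lower). For the interaction it gave 19 to 119 (9 to 67 higher, 10 to 52 lower). The log2 ratio of the MUP sum lay between 0.76 and 1.13. Of 120 named genes called between DKO and control, 58 were called in all 6 such fits.

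Deviations from the group means of samples with the same replicate number correlated between -0.23 and 0.11 over 10185 genes. In groups this small, the deviations within a group depend on each other. These correlations therefore cannot show whether samples with the same number shared a day or batch. With the replicate number as a block, 237 genes were called between DKO and control (109 higher, 128 lower) and 37 against Nrf2 KO (21 higher).

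With 3 control, 3 DKO, and 2 libraries of each single knockout, single libraries decided many calls. Genes with few counts, mainly those of other cell types and the cell cycle, were measured with little precision.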

Other observations

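Erythroid RNA varied among the libraries. The sum of 4 globin genes was 51.9, 182, and 158 normalized counts in control and 1141, 402, and 164 in DKO, and the groups overlapped. None of the 5 tested erythroid markers was called (median log2 fold change 2.06).

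The neutrophil markers summed to 6.63, 7.87, and 2.80 normalized counts in control and 45.2, 50.5, and 11.4 in DKO. Every DKO library was above every control library, and none of the 5 genes tested was called (median log2 fold change 2.58). B cell markers were likewise not called in any of 6 genes tested (median 1.85), and their sums overlapped. The 2 genes that can mark C57BL/6 substrains did not pass the test either.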
